A study of Mus musculus with 2 samples.

Results

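The genes described are Brms1l and 9 partners of the Sin3 histone deacetylase complex: its relatives Brms1 and Suds3, the scaffolds Sin3a and Sin3b, the deacetylases Hdac1 and Hdac2, and the subunits Sap30, Ing1 and Ing2. Brms1l was selected on its log2 ratio between the arrays, and the partners because their products work with it. They were matched to probe sets annotated to 1 gene symbol. All 10 of 10 genes were found, with 11 probe sets, among 19938 named genes, and 0 probe sets with several symbols named any of them. The study placed Aire, the transcriptional regulator of medullary thymic epithelial cells, under control of the β5t (Psmb11) promoter, a thymoproteasome gene of the cortex, in NOD mice, a strain prone to autoimmune diabetes. One array received RNA from cortical thymic epithelial cells (cTECs) isolated from Aire transgenic mice (Tg), and the other received that of control mice (non-Tg). The labels name 7 Tg and 5 non-Tg mice, read here as pools, and give day 7 and the NOD background for both. The labels describe the non-Tg genotype only by the word control. Each group has 1 array, so no difference has a replicate check and no p-value was computed.

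Sin3 proteins are scaffolds without enzyme activity. DNA-binding repressors such as the Mxd proteins and Rest recruit them, and they bring Hdac1 and Hdac2 to chromatin, where removal of acetyl groups from histone tails lowers transcription. The smaller subunits hold the complex together or read histone marks: Suds3 and its relatives Brms1 and Brms1l contact Sin3, Sap30 stabilises the assembly, and Ing1 and Ing2 bind methylated histone tails. BRMS1 is known as a metastasis suppressor in human breast cancer, and Brms1l is its close relative.

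Of the 10 genes, Brms1l alone was at least 2-fold apart between the arrays. Its signal, given on the log2 scale as deposited, was 7.41 on the Tg array and 5.40 on the non-Tg array. The Tg array was thus higher by a log2 ratio of 2.01, which is 4.03-fold. Among 11422 named genes past the filter on dim signals (a value at or above the median of its array on at least 1 array), 1.17% were at least 2-fold apart and 0.797% were at least 2-fold higher in Tg. Brms1l ranked 2 by ratio, but it was chosen for this value, so neither the rank nor the fold supports anything further. It passed the filter through the Tg array only: its non-Tg signal lay under the median of that array, 5.45. It lay above the floor of 4.80 (the 25th percentile of all values) to which lower values were raised. The genes past the filter were ordered by mean level and cut into 10 bins. In the bin of Brms1l, of 1142 genes, the 5th and 95th percentiles of the log2 ratio were -0.55 and 0.64, and the SD was 0.378. Brms1l has 1 probe set (10395831), and no second reading of its transcript was available on these arrays.

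The promoter of Brms1l, the gene that stands apart, is shown beside those of Sap30 and Suds3. Sap30 shares with Brms1l a match to the 9-letter element ACTACNATT, in which N is any letter, and the matches differ at that letter. Suds3, the relative of Brms1l, has no match. The stretches are from RefSeq on GRCm38.p6, read from 5′ to 3′ on the gene's strand. They end just before the start of the gene in the RefSeq gene table, and capitals mark matches to ACTACNATT, searched on both strands. Brms1l lies on the plus strand and its stretch is chr12:55836116-55836323. The start used for Brms1l in the promoter table lies further on, so that 42 bases between the end of its stretch and that start are not shown. Those of Sap30 at chr8:57487861-57488110 and of Suds3 at chr5:117115994-117116243 lie on the minus strand.
Brms1l: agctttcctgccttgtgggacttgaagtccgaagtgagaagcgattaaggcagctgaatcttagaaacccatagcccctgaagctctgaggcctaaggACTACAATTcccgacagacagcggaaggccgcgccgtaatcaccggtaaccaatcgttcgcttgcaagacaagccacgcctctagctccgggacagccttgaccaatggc
Sap30: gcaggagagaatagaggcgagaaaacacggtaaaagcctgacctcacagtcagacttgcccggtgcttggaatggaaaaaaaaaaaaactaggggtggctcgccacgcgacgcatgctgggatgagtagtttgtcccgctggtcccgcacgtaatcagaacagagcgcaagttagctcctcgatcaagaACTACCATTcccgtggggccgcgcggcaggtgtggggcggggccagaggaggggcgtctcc
Suds3: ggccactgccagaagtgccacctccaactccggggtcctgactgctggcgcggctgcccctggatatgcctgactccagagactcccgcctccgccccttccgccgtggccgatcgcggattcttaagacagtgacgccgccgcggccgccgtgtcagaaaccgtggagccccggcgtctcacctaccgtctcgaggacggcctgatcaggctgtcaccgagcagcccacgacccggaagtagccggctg
In Brms1l the match begins 152 bases before the start used in the promoter table, and in Sap30 it begins 61 bases before it. Windows of the 250 bases before a start were searched, and the element occurred in 2 of the 8 members with an entry. It was in 0.615% of all 32851 windows and in 0.897% of the 11598 windows of named genes past the filter. The element, with its free letter, was chosen after the sequences were read, so its presence in these members is a description. Brms1 and Hdac1 are not in the promoter table.

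Other short elements were searched on both strands of the same windows. The GC box GGGCGG, a site for Sp1-type factors, was in at least 1 window of 7 of the 8 members, and the exception was Brms1l. That box was in 32.7% of all windows and in 57.2% of those of genes past the filter. The CCAAT box, with the letters CCAAT, was in 4 members: Brms1l, Ing1, Ing2 and Sin3a. In Brms1l it occurred 2 times, at 103 and 50 bases before the start, and it was in 33.8% of all windows and in 34.4% of those of genes past the filter. The E-box CACGTG, which Max and its Mxd partners bind, was in 0 of the 8 members, in 6.02% of all windows and in 8.1% of those of genes past the filter. The TATA box, searched as TATAAA, was in 2 members, Ing1 and Sin3b, in 12.4% of all windows and in 6.79% of those of genes past the filter. Ing1 and Sin3a have more than 1 annotated start, so each had more windows in which a match could fall. The 8 members had 13 windows, and a member was counted for a match in any of its own. The shares are per window, so the 2 measures are not alike. These matches describe letters in a window and say nothing of what binds there in cTECs.

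**Figure D1:**
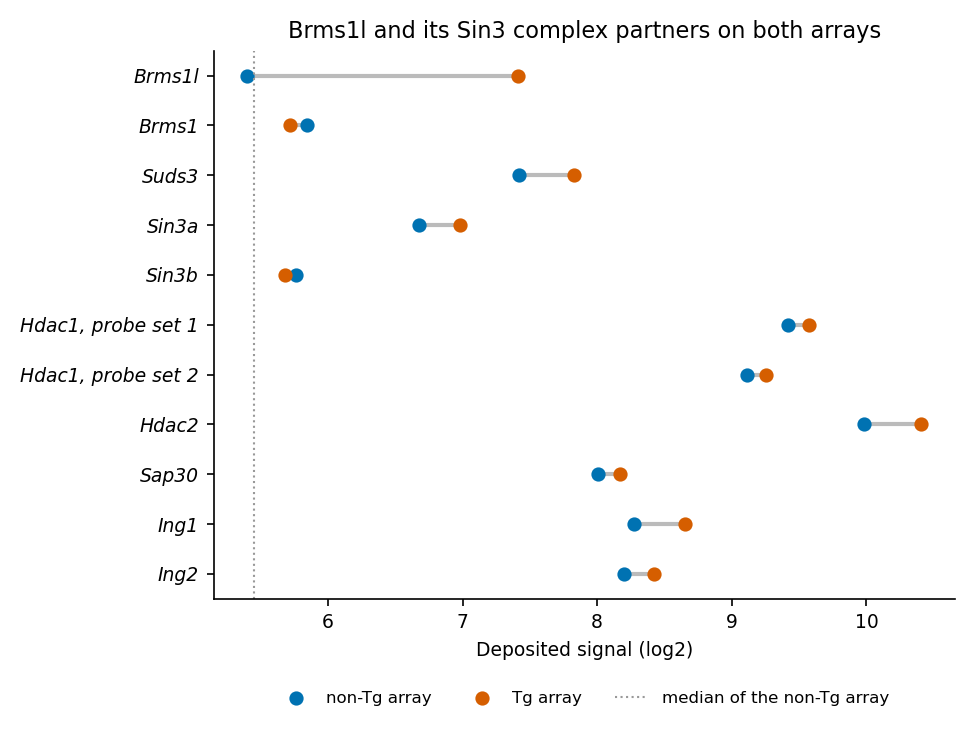
Deposited log2 signal (horizontal axis) of each probe set of Brms1l and its 9 partners (vertical axis) on the Tg array (orange) and the non-Tg array (blue), with 1 array per group and therefore no error bars. The dotted line is the median of the non-Tg array, 5.45. Brms1l runs from 5.40 to 7.41, and the points of each partner lie at most 0.42 apart.

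Neither relative of Brms1l had a ratio near it. Brms1, the closest relative, had a log2 signal of 5.72 on the Tg and 5.85 on the non-Tg array. Its ratio of -0.13 was slightly lower in Tg, at 1.10-fold, and both signals stood a little above the medians of their arrays. Suds3, the mammalian counterpart of yeast Sds3 and a core subunit that supports the deacetylase activity, gave 7.83 on the Tg and 7.42 on the non-Tg array. The ratio was 0.41, or 1.32-fold higher in Tg, and 18.1% of named genes past the filter had a ratio of larger size in either direction. The ratio of Brms1l exceeded that of Brms1 by 2.14 and that of Suds3 by 1.60 on the log2 scale.

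The scaffolds differed in direction, and both were within 1.5-fold. Sin3a, a scaffold essential for mouse development, gave log2 signals of 6.98 (Tg) and 6.68 (non-Tg), a ratio of 0.31 (1.24-fold). Sin3b, its relative, gave 5.68 (Tg) and 5.76 (non-Tg), a ratio of -0.08 (1.06-fold lower). The difference between the scaffolds' ratios was 0.38. A ratio larger in size than that of Sin3a was found in 29.3% of named genes past the filter, and one larger than that of Sin3b in 77.8%.

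The catalytic subunits both had the higher signal on the Tg array. Hdac2 gave log2 signals of 10.41 (Tg) and 9.98 (non-Tg). Its ratio of 0.42 (1.34-fold) was the highest among the partners, and 16.8% of named genes past the filter had one of larger size. In the brightest of the 10 bins, to which Hdac2 belongs, the 5th and 95th percentiles of the ratio were -0.36 and 0.45. Hdac1 had 2 probe sets. The brighter one (10516605) gave 9.57 (Tg) and 9.41 (non-Tg), a ratio of 0.16, and the other (10447004) had 9.25 and 9.12, a ratio of 0.14. Both probe sets thus gave nearly the same ratio. The RefSeq table also lists a pseudogene, Hdac1-ps, that carries Hdac1 among its synonyms, and which of these sequences each probe set reads was not tested.

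Among the smaller subunits, all 3 signals were higher on the Tg array by less than 1.5-fold. Sap30, which bridges Sin3 and the deacetylases, gave 8.17 (Tg) and 8.01 (non-Tg), a log2 ratio of 0.16. Ing1, a reader of methylated histone tails known as a candidate tumour suppressor, had 8.65 and 8.27, a ratio of 0.38 (1.30-fold). Ing2, its relative with the same kind of reader domain, had 8.42 and 8.20, a ratio of 0.22 (1.16-fold). For Sap30, 54.9% of named genes past the filter had a ratio of larger size, against 20.6% for Ing1 and 43.5% for Ing2.

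As a list of 9, the partners had mixed directions. The Tg array was higher for 7 and lower for 2, Brms1 and Sin3b. All 9 passed the filter on both arrays. The ratios ran from -0.13 to 0.42 with a median of 0.22, and 0 of 9 were 2-fold or 1.5-fold apart. Among all named genes past the filter, 50.6% had a ratio above 0, the median was 0.01 and the SD 0.331, and 7.86% were at least 1.5-fold apart. The share above 0 moved with the level. It was 44.4% in the level bin that holds Brms1 and Sin3b, 55.1% in that of Sin3a and 53.9% in that of Suds3. It was 58.3% in the bin of Sap30, Ing1 and Ing2, and 58.9% in the brightest bin, that of Hdac1 and Hdac2. The part of this trend with level in the partners' ratios was not tested. An SD of 0.302 per probe set was estimated from the differences between ratios of the 2 brightest probe sets of 658 genes, and it holds no variation between mice or amplifications. Hdac2, Suds3, Ing1 and Sin3a had ratios above that value, and the other 5 partners had ratios smaller than it in size. Sin3a was barely above it at 0.306, and its ratio was 0.272 under quantile normalization. That SD is a scale and not a cut-off for change. The gap between Brms1l and its nearest partner, Hdac2, was 1.59.

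**Figure D2:**
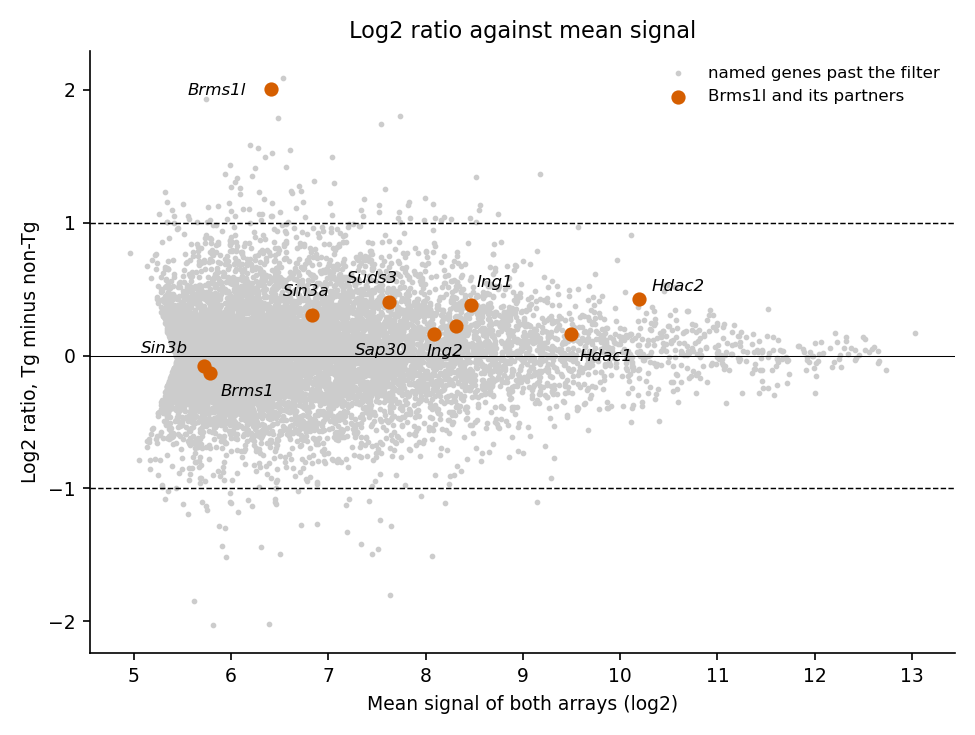
Log2 ratio of Tg minus non-Tg (vertical axis) against the mean log2 signal of both arrays (horizontal axis) for 11422 named genes past the filter (grey) and for Brms1l with its 9 partners (orange). Each point is 1 gene, and dashed lines mark 2-fold. Brms1l lies at 2.01, and the partners lie between -0.13 and 0.42, inside the bulk of the grey points.

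Other subunits of Sin3 complexes were read from a list of 15 genes, all with a probe set and all past the filter on both arrays. None was 2-fold apart (0 of 15), against 1.17% of named genes past the filter, so this count says little of the list. The ratio was above 0 for 9 and below 0 for 6, with a median of 0.05 and a range from -0.23 to 0.64. Under quantile normalization Arid4b and Sinhcaf changed sign, which left 7 above and 8 below 0 and a median of -0.02. Tet1, a DNA demethylase that associates with Sin3a, had the highest ratio. Its brightest probe set had 8.20 in Tg and 7.56 in non-Tg (ratio 0.64, 1.56-fold) and the next had 7.10 and 6.51 (0.59). The third, the dimmest, had 5.84 on both arrays. The probe sets of Tet1 therefore did not give 1 value for the gene. The histone chaperone Rbbp4 had 7.48 and 7.15 (ratio 0.32), while its relative Rbbp7 had 10.04 and 9.95 (0.09) on one probe set and 10.03 and 9.86 (0.17) on the other.

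Of the remaining subunits, the chromodomain protein gene Morf4l1 had a ratio of 0.30 and Ogt, which encodes the enzyme that attaches O-linked N-acetylglucosamine, 0.21. The DNA-binding subunits Arid4a and Arid4b had 0.13 and 0.01. Phf12, a PHD finger subunit, had 0.05, as did Sinhcaf on each of its 2 probe sets. Those below 0 were Sap18 at -0.08, Sap30l, the relative of Sap30, at -0.11, the demethylase gene Kdm5a at -0.12, Sap130 at -0.13, and the forkhead factors Foxk1 and Foxk2 at -0.21 and -0.23. The subunits Sap130 and Sap30l were thus on the other side of 0 from Brms1l. The largest of these 6 downward differences was 1.17-fold.

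**Figure D3:**
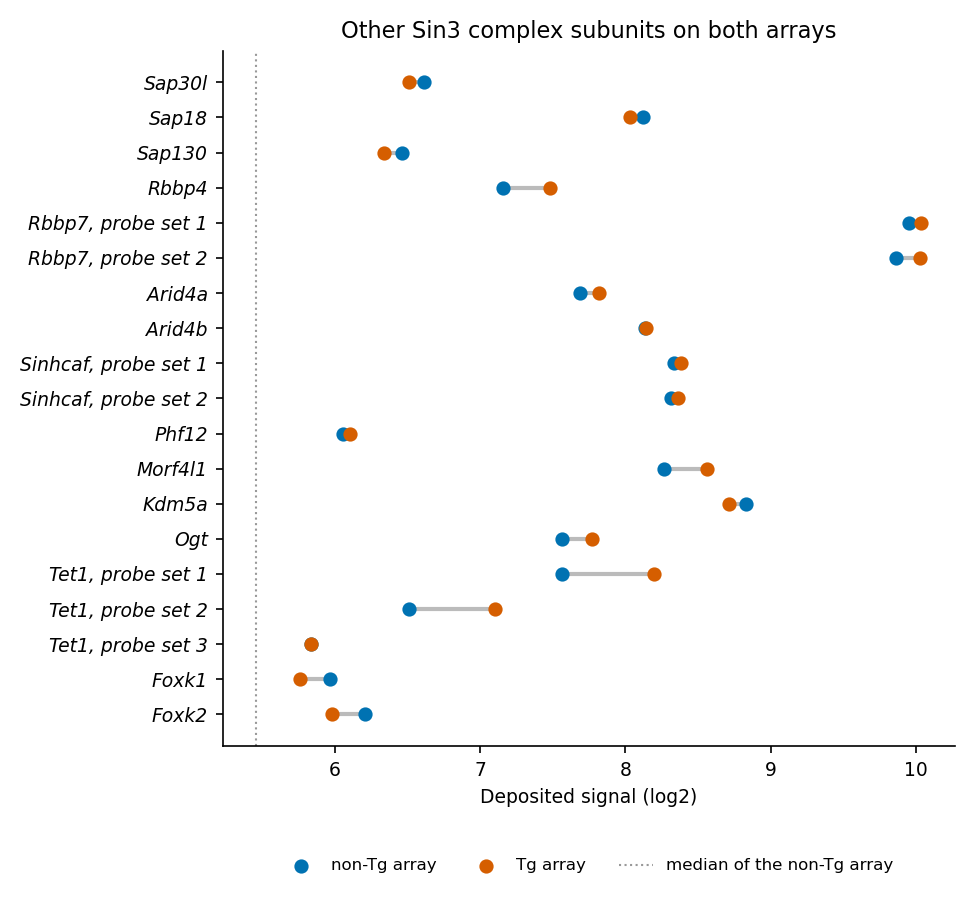
Deposited log2 signal (horizontal axis) of every probe set of the 15 other Sin3 complex subunits (vertical axis) on the Tg array (orange) and the non-Tg array (blue), 1 array per group. The dotted line is the median of the non-Tg array. The widest gap is that of the brightest Tet1 probe set, from 7.56 to 8.20.

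Hdac1 and Hdac2 serve other complexes too, so lists of these were read beside the Sin3 genes. The lists of other ING and deacetylase genes were drawn by gene family and not by complex. Among all named genes past the filter 1.17% were at least 2-fold apart. A count of 0 in short lists such as these therefore says little of them. The other ING family genes, Ing3, Ing4 and Ing5, had ratios of 0.30, 0.17 and 0.48, all above 0 and none 2-fold apart (0 of 3). The other histone deacetylase genes had a median of -0.01 over 9 genes, with 8 past the filter and 0 beyond 2-fold, and that median turned to 0.01 with centred arrays and to 0.02 with quantile normalization. Among those 8 the highest ratio was that of Hdac8 at 0.24 and the lowest that of Hdac3, the catalytic subunit of the NCoR complex, at -0.29. Hdac4 had 2 probe sets with ratios of -0.03 and -0.44.

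In the NuRD complex, which shares Hdac1 and Hdac2 with Sin3, 9 genes had a median of 0.08. Of these 0 were 2-fold apart, against 1.17% of named genes past the filter. The highest was the subunit gene Mta1, at 6.90 in Tg and 6.32 in non-Tg (ratio 0.59), and the lowest its relative Mta3 at -0.28. In the CoREST complex, which also uses these deacetylases, 8 genes had a median of 0.15, and 7 passed the filter. The histone demethylase gene Kdm1a gave 8.56 (Tg) and 7.82 (non-Tg), a ratio of 0.75 (1.68-fold), and the PHD finger gene Phf21a was lowest at -0.24. Of all genes in the lists of deacetylase complexes, Kdm1a stood second after Brms1l. The 3 NCoR complex genes with a probe set ran from -0.13 for Gps2 to 0.27 for Tbl1x, with a median of 0.19. Tbl1xr1 had 2 probe sets, the brighter at 0.19 and the other, at 8.92 in Tg and 8.46 in non-Tg, at 0.46, and averaging probe sets gave a list median of 0.27.

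DNA-binding factors that recruit Sin3 had ratios on both sides of 0. Of 12 genes, 11 had a probe set and 10 passed the filter, and the median was -0.03. In this list 0 were 2-fold apart, against 1.17% of named genes past the filter. Rest, the repressor of neuronal genes, had the highest ratio at 0.36, from 7.04 in Tg and 6.68 in non-Tg. Mlx, a partner of the Mxd family, had the lowest at -0.63, from 6.55 and 7.17, and was the one gene of this list 1.5-fold or more apart. Max, the shared dimer partner, had 10.05 and 10.07.

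**Figure D4:**
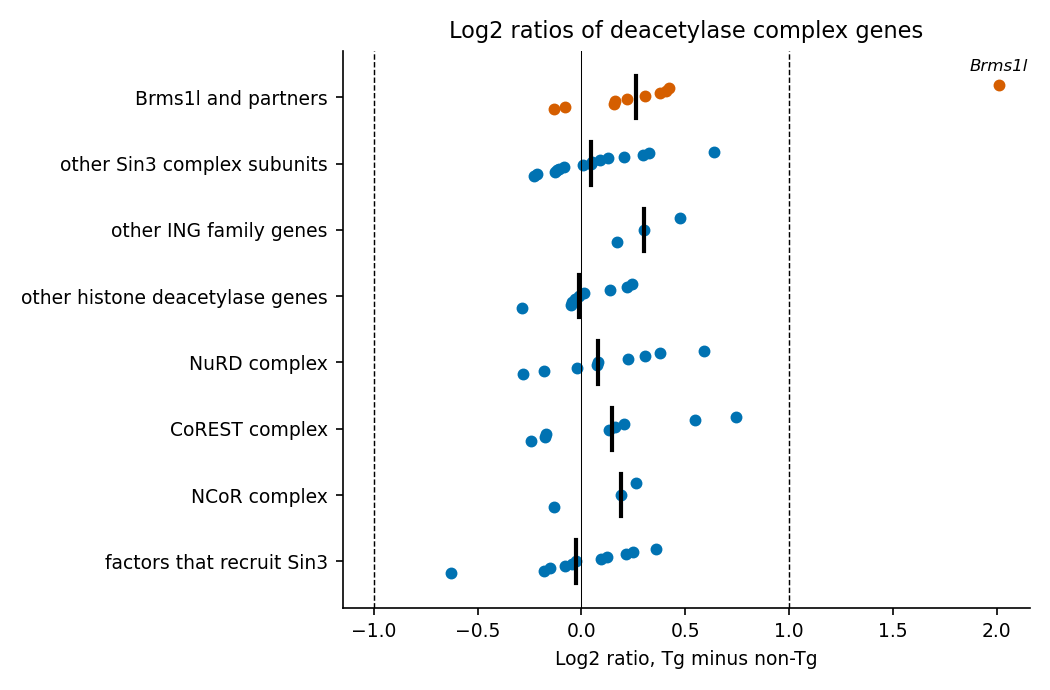
Log2 ratio of Tg minus non-Tg (horizontal axis) for each gene of 8 lists (vertical axis), with 1 point per gene and a black bar at the list median. Dashed lines mark 2-fold. Brms1l at 2.01 is the single point beyond 2-fold, and the next highest is Kdm1a of the CoREST list at 0.75.

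The nearest genes with a probe set on each side of Brms1l along its chromosome had ratios lower than its own. On one side, Ralgapa1, a GTPase-activating protein subunit gene, gave 7.48 (Tg) and 7.33 (non-Tg), a ratio of 0.15. Beyond it, Insm2 had -0.30 and Aldoart2, which did not pass the filter, had -0.15. On the other side the nearest gene with a probe set was Mbip, a regulator of MAP kinase signalling, at 6.68 and 6.17 (ratio 0.50, the widest among these neighbours). Then came the homeobox genes Nkx2-1, which lay under the floor on both arrays, and Nkx2-9 at -0.27. In the RefSeq gene table Mbip stood 8 places from Brms1l, Nkx2-1 12 and Nkx2-9 16, so these are not its immediate neighbours. None of these 6 genes was 2-fold apart, against 1.17% of named genes past the filter. At that share a count of 0 says little, and Aldoart2 and Nkx2-1, which did not pass the filter, could not be counted.

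**Figure D5:**
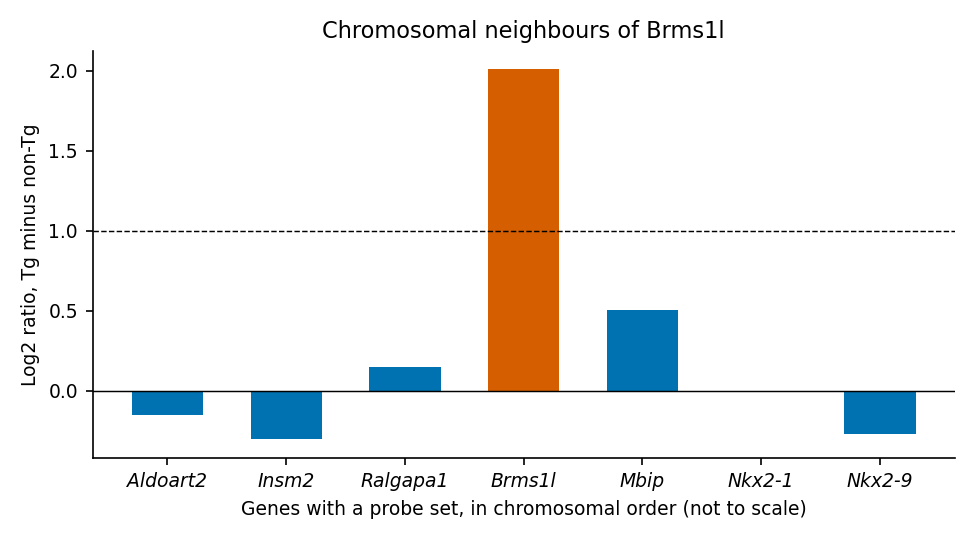
Log2 ratio of Tg minus non-Tg (vertical axis) for Brms1l (orange) and the 3 nearest genes with a probe set on each side (blue), in order along chromosome 12 and not to scale (horizontal axis). Bars start at 0 and the dashed line marks 2-fold. Brms1l reaches 2.01, and its highest neighbour, Mbip, 0.50.

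The genes ranked around Brms1l by ratio are given as a description. Brms1l was picked for its ratio, and no other listed Sin3 subunit had one above 0.64, so none could stand beside it. The olfactory receptor gene Olfr99 was the 1 gene above Brms1l, with a ratio 0.08 higher. Just below stood the zinc finger gene Zfp626, at least 3.82-fold higher in Tg because the floor replaced its non-Tg signal. Next came Aldh3b3, an aldehyde dehydrogenase gene, and Snx11, a sorting nexin gene, with ratios of 1.80 and 1.79. Aldh3b3 has 3 probe sets, and its ratio here is that of the brightest alone. Likeness here is the distance between log2 ratios over 2 arrays, so it holds no pattern beyond 1 difference per gene.

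The check of the labels rests on Aire, at 7.33 (Tg) and 6.06 (non-Tg), a ratio of 1.28, and on Psmb11, the source of the promoter, at 10.51 and 10.15. All 8 cortical markers passed the filter, with ratios from 0.05 to 0.37. Of them 0 were 2-fold apart, against 1.17% of named genes past the filter. Markers of medullary epithelial cells passed beside them: 5 of 6 with a probe set did, and apart from Aire none was 2-fold apart. The basal keratin gene Krt5 had 10.73 in Tg and 10.39 in non-Tg (ratio 0.34) and Krt14 had 7.64 and 7.50 (0.14), while Tnfrsf11a, which encodes the receptor RANK, had -0.39 and the regulator gene Fezf2 -0.08. The summed linear signal of the 6 genes, Aire included, was 2198 in Tg and 1743 in non-Tg. Most of both sums came from Krt5, the brightest, and the ratio was above 0 for 3 of the 6 and below 0 for 3. Some markers of non-epithelial cells passed the filter as well, which is not a detection call. Of all 19938 named genes, 11422 passed it. Of 7 thymocyte markers with a probe set, 6 passed the filter with ratios from -0.22 to 0.18. Rag1, the brightest, had 10.89 in Tg and 10.96 in non-Tg, above the signal of Psmb11 on both arrays. Ptcra, the dimmest that passed, had 5.67 and 5.68. The summed linear signal over all 7, most of it from Rag1, was 3247 in Tg and 3367 in non-Tg. Macrophage and dendritic cell markers passed in 2 of 6, with sums of 241 and 275, and B cell markers in 1 of 3. The other 2 B cell markers lay under the floor on both arrays. Fibroblast markers passed in 3 of 4, endothelial in 4 of 4 and erythroid in 1 of 2, none 2-fold apart. Sin3 genes are expressed in thymocytes as well as in epithelium, and in such bulk RNA fewer cells of a type and less RNA per cell cannot be told apart. The part of other cells in the ratio of Brms1l was not tested.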

How the data were processed

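Per the labels' protocols, total RNA was purified on columns, cDNA was made and amplified from 400 pg by the Ovation One-Direct method, and 5.5 µg was fragmented and biotin-labelled for Affymetrix arrays. The authors deposited 1 log2 signal for each of 28856 probe sets and each of the 2 arrays. The log2 scale was inferred from the range of 4.22 to 13.7. How the authors corrected background and normalized the arrays, and on which build, is not stated in the labels, and detection calls and scan batches were not used here. Signals near the lower end compress ratios of dim genes, and precision is limited by 1 array per group.

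Genes were named from GEO's platform annotation: 21789 probe sets had 1 symbol, 1621 several and 5446 none. All 10 members matched a RefSeq gene table of GRCm38.p6 by gene ID, and that table gave the order of neighbouring genes. For each gene the probe set with the highest mean was taken. Values under the 25th percentile (4.80) were raised to it. A gene passed the filter at or above the 50th percentile of its array (5.43 for Tg, 5.45 for non-Tg) on at least 1 array. The ratio was Tg minus non-Tg on the log2 scale, and a rule of size (2-fold) stood in place of a test. The code of the calling rule was run on simulated data, with changes planted only in genes brighter on average than Brms1l. The noise was scaled to the difference between these 2 arrays. The run therefore checks the code and says nothing of the variation between mice, pools or amplifications. Python 3.11.15, numpy 2.4.6, pandas 2.3.3 and matplotlib 3.10.9 were used.

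The members and lists were chosen with earlier results of these data known. The rule for named genes took all 10 members, all other Sin3 subunits, the 3 genes ranked on each side of Brms1l by ratio (1 existed above it), the 3 nearest genes on each side along the chromosome, and of each other list the members beyond 2-fold or those past the filter with the highest and lowest ratio, as well as Aire and Psmb11. Max, Ing4, Ing3, Hdac4, Tbl1xr1, Rag1, Ptcra and the medullary markers were added after their values were seen. Alternatives changed the floor, the filter, the probe set rule, the scaling between arrays and the size rule.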

Additional observations from a re-analysis of the deposited data

How the results depend on the processing

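The log2 ratio of Brms1l ranged from 1.97 to 2.03 over the main setting and 7 alternatives: no floor, a floor at the 50th percentile, no filter, a filter at the 75th percentile, the mean of a gene's probe sets, centring on the median and quantile normalization. Leaving out the floor, changing the filter or averaging probe sets could not move this ratio. Brms1l has 1 probe set and lay above the main floor on both arrays, and the filter does not enter the ratio. Only the higher floor and the scalings could change it. Under every setting 1 member, Brms1l, was at least 2-fold apart, as it was at 1.5-fold and when every probe set was counted on its own. The number of partners with a ratio above 0 was 7 throughout, out of 9, or out of 7 with the stricter filter, which Brms1 and Sin3b did not pass. The partners' median ranged from 0.16 to 0.24. The median of the other Sin3 subunits was 0.05 and turned to -0.02 under quantile normalization, and that of the other deacetylase genes, -0.01, turned to 0.01 with centred arrays and 0.02 under quantile normalization. With 1.5-fold in place of 2-fold, the count of named genes apart went from 134 to 898, by construction of the smaller size, and 1 gene was counted in each of the lists of other Sin3 subunits, NuRD, CoREST and recruiting factors, where 2-fold gave 0. Centring gave 98 higher and 40 lower genes and quantile normalization 81 and 47, against 91 and 43. No paired analysis was possible because each group has 1 array. Without replicates, none of these ranges holds the variation between mice, pools or amplifications.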
